A study of Mus musculus with 12 samples.

Results

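The CXC and CX3C chemokine ligands described here were 9 genes, Cxcl1, Cxcl2, Cxcl9, Cxcl10, Cxcl12, Cxcl13, Cxcl14, Cxcl16, and Cx3cl1, among 40551 genes counted by total RNA sequencing in 12 mouse livers. The genes were listed by symbol, and each of the 9 symbols matched 1 Ensembl identifier in the count files. All 9 passed the filter on low counts that left 15070 genes to test. The livers came from 4 genotypes with 3 libraries each. WT livers carried Mcl1 and Sting1. Mcl1Δhep livers (Mcl1 KO in the labels) lacked Mcl1 in hepatocytes through a floxed Mcl1 allele and Cre driven by the albumin promoter, a model of chronic liver disease in which hepatocytes without the survival factor MCL1 die continually. Mcl1Δhep Sting1-/- livers (Mcl1 Sting1 DKO) lacked Sting1 in the whole body in addition, and Sting1-/- livers (Sting1 KO) lacked Sting1 alone. STING is the adaptor that relays the sensing of cytosolic DNA by cGAS. Per the methods, mice with WT, Mcl1Δhep, and Mcl1Δhep Sting1-/- genotypes were studied at 2 and 12 months of age and both sexes were used. The paper's results describe the transcriptomic analysis of Mcl1Δhep livers as one of 2-month-old samples, but no label ties an age to a library. The methods call the samples of the expression plots biological replicates, while the labels name no animals, and p-values measure the spread between these libraries.

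Between 28826367 and 45266387 reads fell on genes per library. Levels are given as CPM, reads scaled to library size with TMM factors, which compares 1 gene across libraries, or as TPM, which also divides by gene length and compares genes with each other. Mcl1 stood between 90.2 and 104 CPM in WT and between 24.98 and 33.96 CPM in Mcl1Δhep livers, and between 18.1 and 25.97 CPM in Mcl1Δhep Sting1-/- livers. Sting1 transcripts remained in the libraries labelled Sting1 KO, between 1.16 and 2.70 CPM, against 2.11 to 2.53 CPM in WT, so that gene-level counts gave no check of the Sting1 labels. Directions drawn below from the Sting1-/- genotypes therefore refer to libraries labelled so. Hepatocyte markers summed to at least 89842 CPM in each library. Y-linked genes held 4233 to 5294 reads in WT replicates 2 and 3 and in Mcl1Δhep Sting1-/- replicate 1, and at most 6 reads in each of the other 9 libraries. Small RNA genes took 0.192% to 0.422% of counts in WT and 0.315%, 2.78%, and 1.55% in Mcl1Δhep replicates 1 to 3. Mcl1Δhep replicate 3 also held skeletal muscle transcripts, and the 5 markers of that tissue reached 1155 CPM there.

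Chemokine ligands are small secreted or membrane-anchored proteins that steer leukocytes along a gradient through G protein-coupled receptors. The CXC and CX3C families are named for the spacing of the cysteines near the N terminus. In the liver, CXCL1 and CXCL2 act on CXCR2 and draw neutrophils to injured tissue, CXCL9 and CXCL10 are interferon-inducible and act on CXCR3 of T and NK cells, and CXCL12 acts on CXCR4 and is made constitutively by stromal and endothelial cells. CXCL13 acts on CXCR5 of B cells, CXCL14 is a homeostatic ligand of epithelia, and CXCL16 and CX3CL1 are made as transmembrane proteins that hold cells bearing CXCR6 and CX3CR1 until proteases shed them.

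Of the 9 genes, 5 lie on chromosome 5 (GRCm39). Cxcl1 (91039094 to 91040974) and Cxcl2 (91051730 to 91053797) are neighbors on the plus strand, 10.755 kb apart. Cxcl9 (92469206 to 92475945) and Cxcl10 (92494497 to 92496748) lie 18.551 kb apart on the minus strand, and Cxcl13 (96104810 to 96108927) lies on the plus strand. Cxcl12 lies on chromosome 6, Cx3cl1 on chromosome 8, Cxcl16 on chromosome 11 (70344517 to 70352620, minus strand), and Cxcl14 on chromosome 13. The exons of Cxcl16 share 2213 bases with those of Med11 and 2132 bases with those of Zmynd15, both on the opposite strand, and the exons of Cxcl10 share 133 bases with those of Art3, and those of Cx3cl1 share 427 bases with the long noncoding RNA gene 1700121C10Rik. The use of strand in counting is not given in the sources used here, so reads of these overlaps cannot be told apart.

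Promoters (250 bases before to 50 bases after the annotated start) were found in the RefSeq table of GRCm38.p6 for 8 of the 9 genes, with no entry for Cxcl16. The promoters of the neighbors Cxcl1 and Cxcl2 and of the neighbors Cxcl9 and Cxcl10 are shown because these pairs are the classical inducible ligands of the list. Both strands were searched for the NF-kB consensus of 10 letters, for GAAANNGAAA (the interferon-stimulated response element), and for TTCNNNGAA (the gamma-activated site), and capitals mark every match. The sequences cover chr5:90890995-90891294 (plus strand), chr5:90903649-90903948 (plus strand), chr5:92328030-92328329 (minus strand), and chr5:92348840-92349139 (minus strand) and are written from 5′ to 3′ along the gene.
Cxcl1: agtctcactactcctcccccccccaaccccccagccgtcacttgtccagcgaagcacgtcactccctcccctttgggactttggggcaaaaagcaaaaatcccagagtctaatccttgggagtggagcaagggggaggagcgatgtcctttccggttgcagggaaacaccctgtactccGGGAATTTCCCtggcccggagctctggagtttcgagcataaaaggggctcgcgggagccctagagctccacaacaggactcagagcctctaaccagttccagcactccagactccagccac
Cxcl2: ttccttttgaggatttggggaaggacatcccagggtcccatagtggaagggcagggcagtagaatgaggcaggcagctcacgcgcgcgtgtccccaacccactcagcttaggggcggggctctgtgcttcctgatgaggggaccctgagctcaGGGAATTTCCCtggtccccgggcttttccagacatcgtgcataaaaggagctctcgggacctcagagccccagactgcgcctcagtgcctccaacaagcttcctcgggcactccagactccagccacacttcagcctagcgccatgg
Cxcl9: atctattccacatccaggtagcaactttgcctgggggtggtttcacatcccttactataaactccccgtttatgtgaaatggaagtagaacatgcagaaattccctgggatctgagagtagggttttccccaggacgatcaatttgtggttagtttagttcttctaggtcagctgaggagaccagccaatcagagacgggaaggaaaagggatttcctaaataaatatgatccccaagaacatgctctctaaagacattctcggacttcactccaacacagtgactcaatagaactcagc
Cxcl10: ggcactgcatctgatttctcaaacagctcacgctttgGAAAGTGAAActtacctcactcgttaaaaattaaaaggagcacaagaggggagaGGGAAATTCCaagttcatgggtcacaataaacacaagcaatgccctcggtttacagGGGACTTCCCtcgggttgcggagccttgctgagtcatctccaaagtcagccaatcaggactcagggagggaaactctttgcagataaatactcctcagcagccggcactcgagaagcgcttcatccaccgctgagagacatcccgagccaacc

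The NF-kB consensus was found in 3 of the 8 promoters, those of Cxcl1, Cxcl2, and Cxcl10, and in 4.51% of all 32851 promoters of the table. In Cxcl1 it covered positions -71 to -61 and in Cxcl2 positions -97 to -87 relative to the start, and the same 11 bases matched on both strands in each, with the matches of the plus and minus strand offset by 1 base. Cxcl10 held it from -159 to -150 and from -103 to -94, and an interferon-stimulated response element from -213 to -204. That element was found in 2 of the 8 promoters, Cxcl10 and Cxcl14, against 3.44% of all promoters. The gamma-activated site was found only in the promoter of Cxcl14, 1 of the 8, against 8.30% of all promoters. In the window shown for Cxcl9, the letters of the 3 motifs were absent.

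Cxcl12 was the most abundant of the 9 transcripts in every library, with a mean of 84.2 TPM over the 12 libraries, and Cxcl9 followed with 25.8 TPM. Cxcl10 (9.77 TPM) and Cxcl16 (9.47 TPM) were next, Cxcl1 reached 5.50 TPM, Cxcl14 3.13 TPM, Cxcl13 3.09 TPM, and Cx3cl1 1.61 TPM. Cxcl2 was the least abundant at 0.340 TPM, the 7.79th percentile of the genes tested, whereas Cxcl12 stood at the 91.8th percentile. Only Cxcl12 was separated from its neighbor in the order in all 4 genotypes. Cxcl10 and Cxcl16 overlapped in each genotype, and the libraries of Cxcl13, Cxcl1, and Cxcl14 overlapped their neighbors in WT. With the length of the canonical transcript in place of all exons, the order of means changed among Cxcl13, Cxcl1, and Cxcl14 in WT and between Cxcl9 and Cxcl10 and between Cxcl13 and Cxcl2 in Mcl1Δhep livers.

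**Figure D1:**
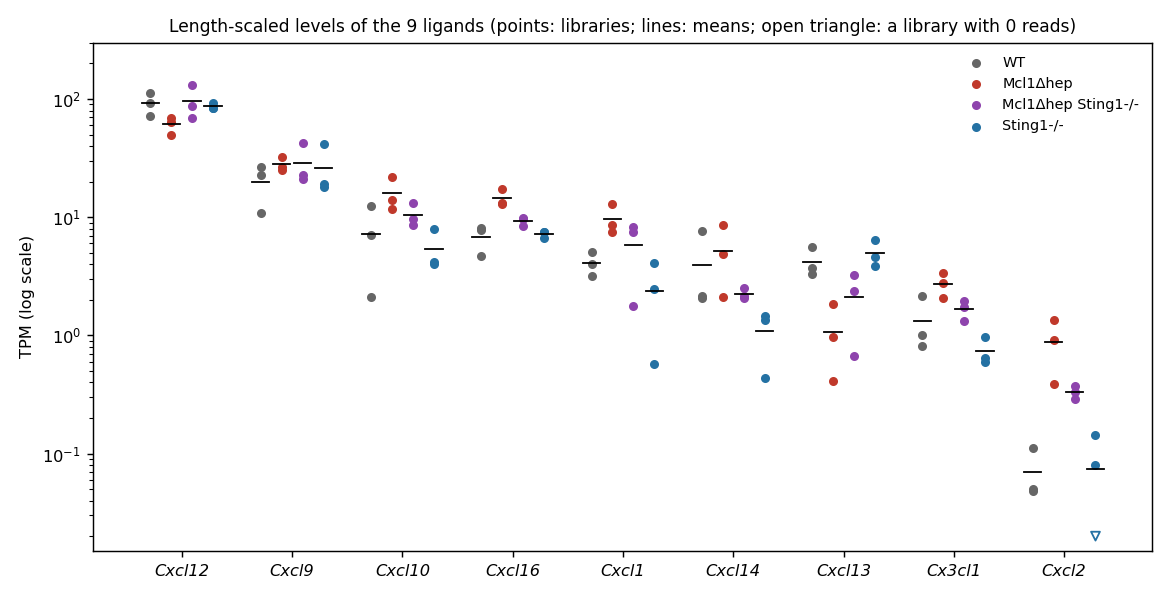
Level of each ligand in TPM on a log axis, with 1 point per library, a line at the mean of each genotype (n = 3), and the genes in order of their mean over 12 libraries. Cxcl12 lies above all other ligands in each genotype, Cxcl2 does not exceed 1.36 TPM in any library, and the open triangle marks the Sting1-/- library with 0 reads of Cxcl2.

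The composition of this ligand pool differed between Mcl1Δhep and WT livers, while the summed TPM of the 9 genes overlapped, between 125 and 165 TPM in WT and between 130 and 151 TPM in Mcl1Δhep livers. Cxcl12 contributed 57.6% to 71.7% of the sum in WT and 38.2% to 47.4% in Mcl1Δhep livers, with no overlap. Its share was 56.2% to 65.4% in Mcl1Δhep Sting1-/- and 56.5% to 70.1% in Sting1-/- livers. Cxcl16 contributed 3.59% to 6.48% in WT and 8.54% to 13.4% in Mcl1Δhep livers, and Cxcl1 2.45% to 3.90% in WT and 4.999% to 9.88% in Mcl1Δhep livers. Shares of a sum depend on each other, so a fall of Cxcl12 raises the others, and they were not tested.

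**Figure D2:**
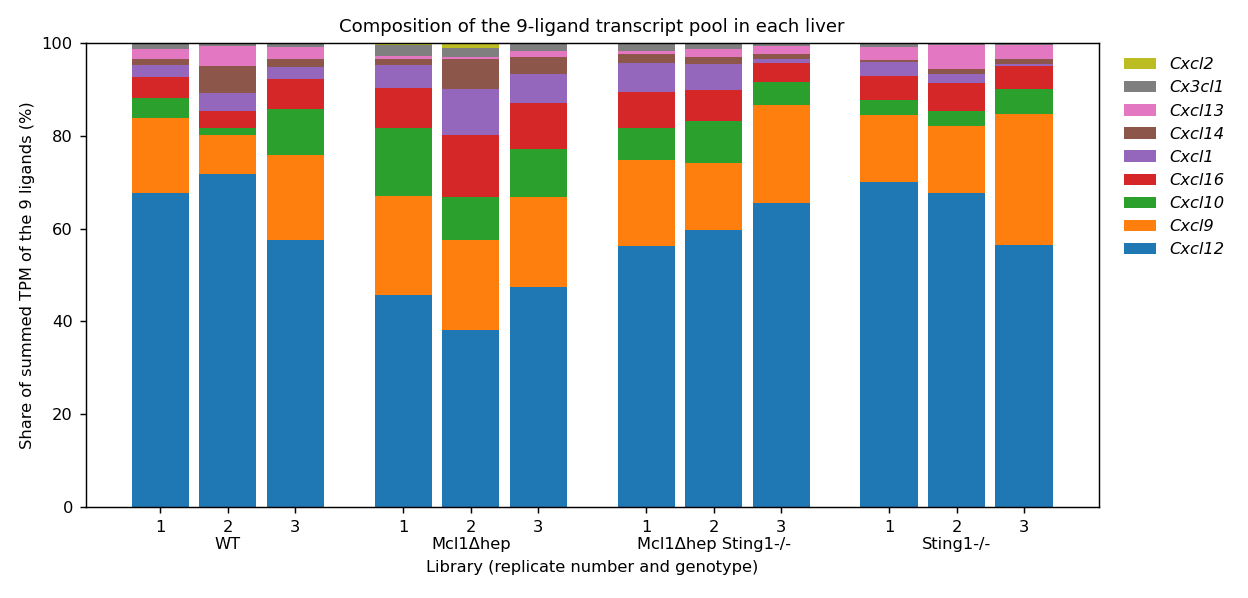
Share of each ligand in the summed TPM of the 9 ligands (vertical axis, percent), with 1 bar per library grouped by genotype. The blue Cxcl12 segment is smaller in the 3 Mcl1Δhep bars, at 38.2% to 47.4%, than in the 9 other bars, where its lowest value is 56.2%.

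The comparison of Mcl1Δhep with WT livers asked how the deletion of Mcl1 in hepatocytes changed these ligands while Sting1 was present. Cxcl2, Cxcl16, and Cx3cl1 rose and Cxcl13 fell. Cxcl16 was 2.26-fold and Cx3cl1 2.11-fold higher, Cxcl13 stood at 0.292 of its WT level, and Cxcl2 rose from 1 or 2 reads per WT library to between 8 and 30. The other 5 ligands did not pass the test. The edgeR quasi-likelihood test at an adjusted p under 0.05 thus called 4 of the 9 ligands, where it called 20.2% of all genes tested. Of these, 3 were higher, where 10.8% of all genes were called higher, and 1 was lower, where 9.43% were called lower. The median log2 fold change of the 9 ligands was 1.08 and that of all genes tested -0.0049. The count of 4 and this median include Cxcl2, which passed the filter on low counts through the Mcl1Δhep libraries alone.

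**Figure D3:**
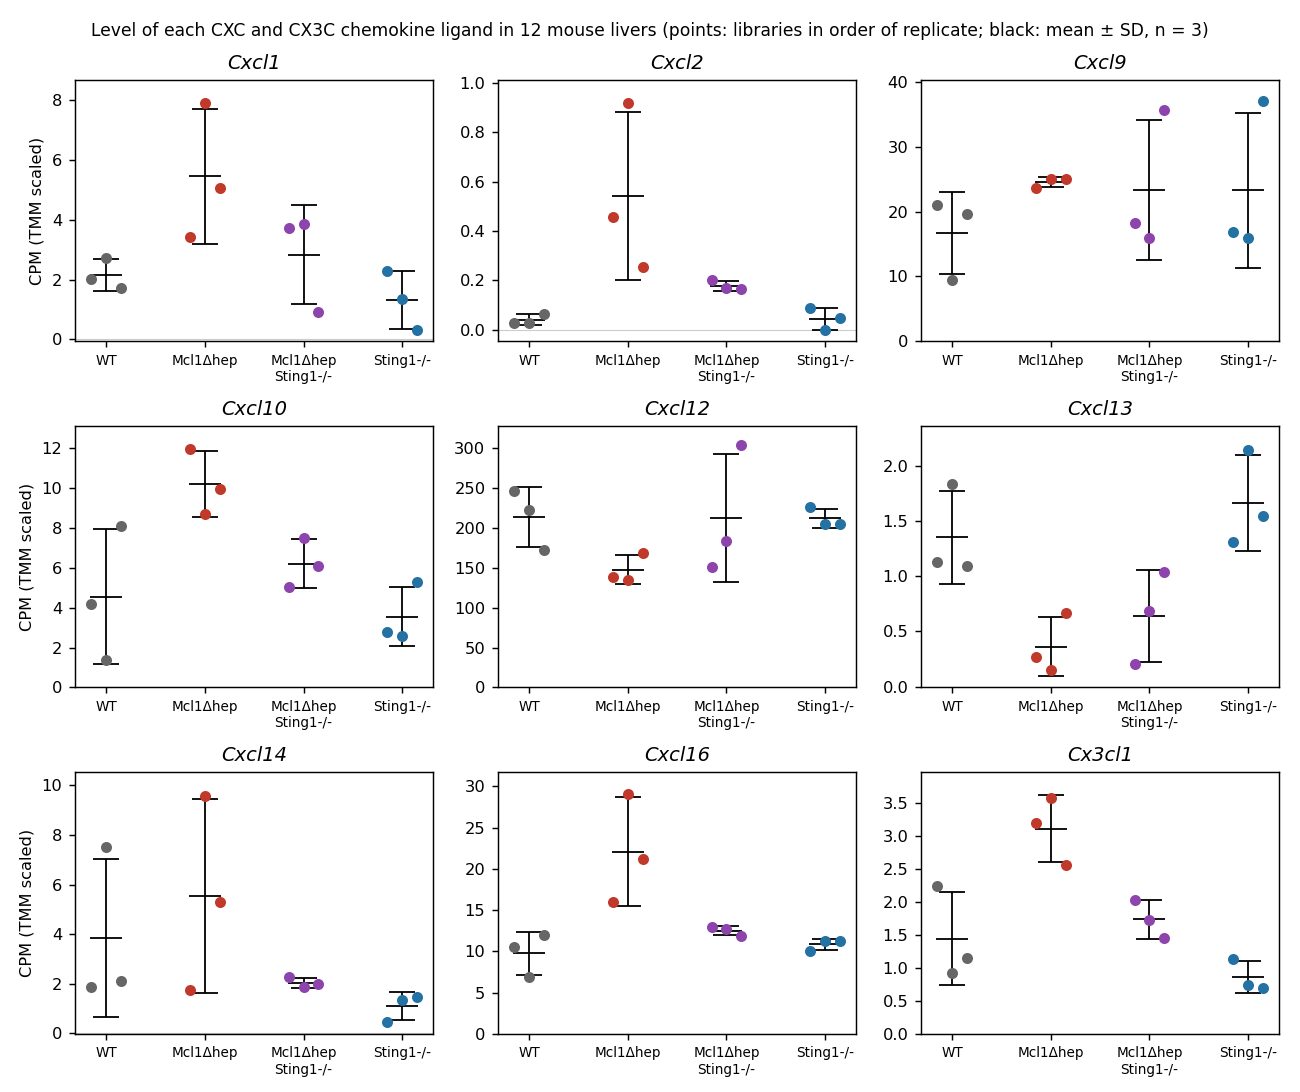
CPM of each ligand in the 12 libraries by genotype, with 1 point per library and the mean ± SD of 3 libraries in black. Cxcl12 and Cxcl13 have their lowest mean in Mcl1Δhep livers, and all other ligands have their highest mean there. Within genotypes, Cxcl1 and Cxcl14 spread most on the log2 scale (SD 0.95 and 0.94).

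Among the neutrophil-attracting ligands, Cxcl2 had 1, 1, and 2 counts in WT replicates 1 to 3, 22, 30, and 8 counts in Mcl1Δhep livers, 6, 7, and 6 counts in Mcl1Δhep Sting1-/- livers, and 3, 0, and 2 counts in Sting1-/- livers. The WT and Mcl1Δhep libraries did not overlap, and the 0 counts of Sting1-/- replicate 2 allow a level of up to 0.0796 CPM at a floor of 3 counts. Pooled over libraries and scaled by library size, the 60 reads of the Mcl1Δhep group stood against 4 of WT, a ratio of 13.6 with an exact 95% interval of 5.03 to 51.4 that covers counting error only. The fitted log2 fold change was 2.65 with the prior count and 3.77 without it, with an SE of 0.75 and an edgeR adjusted p of 0.00722. Cxcl2 passed the filter on low counts through the Mcl1Δhep libraries alone, where it is high, so its call supports neither the count of called ligands nor their median. Without the filter, its edgeR adjusted p was 0.00910.

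Cxcl1, the neighbor of Cxcl2 and a ligand of the same receptor, stood at 2.01, 2.73, and 1.72 CPM in WT, 3.43, 7.89, and 5.06 CPM in Mcl1Δhep, 3.71, 3.87, and 0.930 CPM in Mcl1Δhep Sting1-/-, and 2.27, 1.35, and 0.314 CPM in Sting1-/- livers. All Mcl1Δhep libraries lay above all WT libraries, but the spread within genotypes was the widest of the 9 ligands, with an SD of 0.95 on the log2 scale. The log2 fold change of 1.32 (SE 0.61) had an edgeR adjusted p of 0.134.

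Of the interferon-inducible ligands, Cxcl10 stood at 4.17, 1.36, and 8.09 CPM in WT, 11.9, 8.69, and 9.96 CPM in Mcl1Δhep, 5.04, 7.48, and 6.07 CPM in Mcl1Δhep Sting1-/-, and 2.79, 2.60, and 5.26 CPM in Sting1-/- livers. The Mcl1Δhep libraries lay just above the highest WT library, and the WT libraries differed among themselves by more than the gap. Its log2 fold change of 1.16 (SE 0.48) had an edgeR adjusted p of 0.0977 and a DESeq2 adjusted p of 0.0397. Cxcl9 stood at 21.1, 9.40, and 19.6 CPM in WT, 23.7, 25.0, and 25.0 CPM in Mcl1Δhep, 18.2, 15.99, and 35.7 CPM in Mcl1Δhep Sting1-/-, and 16.9, 15.9, and 37.0 CPM in Sting1-/- livers. The Mcl1Δhep libraries were close to each other and above WT, whereas 1 library of each Sting1-/- genotype stood above all others. Its log2 fold change against WT was 0.55 (SE 0.39), with an edgeR adjusted p of 0.324.

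Among the constitutive and homeostatic ligands, Cxcl12 stood at 246, 223, and 173 CPM in WT, 139, 135, and 169 CPM in Mcl1Δhep, 152, 183, and 304 CPM in Mcl1Δhep Sting1-/-, and 226, 205, and 205 CPM in Sting1-/- livers. The lowest WT library lay just above the highest Mcl1Δhep library. The log2 fold change of -0.53 (SE 0.23) had an edgeR adjusted p of 0.121. Cxcl13, the B cell attractant, stood at 1.13, 1.84, and 1.09 CPM in WT, 0.269, 0.153, and 0.664 CPM in Mcl1Δhep, 0.200, 0.682, and 1.04 CPM in Mcl1Δhep Sting1-/-, and 1.31, 2.15, and 1.54 CPM in Sting1-/- livers. Both genotypes with the Mcl1 deletion lay below both genotypes without it, with counts of 5 to 38 against 33 to 81 per library. The fall against WT was -1.78 on the log2 scale (SE 0.58), with an edgeR adjusted p of 0.0360. Cxcl14 stood at 1.87, 7.504, and 2.11 CPM in WT, 1.76, 9.58, and 5.28 CPM in Mcl1Δhep, 2.27, 1.85, and 1.97 CPM in Mcl1Δhep Sting1-/-, and 0.436, 1.35, and 1.47 CPM in Sting1-/- livers. It was the only ligand whose Mcl1Δhep and WT libraries overlapped, and its log2 fold change of 0.52 (SE 0.63) had an edgeR adjusted p of 0.574.

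Of the transmembrane ligands, Cxcl16 stood at 10.5, 6.85, and 11.9 CPM in WT, 15.97, 29.1, and 21.2 CPM in Mcl1Δhep, 12.9, 12.7, and 11.9 CPM in Mcl1Δhep Sting1-/-, and 10.04, 11.2, and 11.2 CPM in Sting1-/- livers. The Mcl1Δhep libraries were above every other library, and the other 3 genotypes lay close together. The log2 fold change against WT was 1.17 (SE 0.23), with an edgeR adjusted p of 0.00645. Cx3cl1 stood at 2.24, 0.919, and 1.16 CPM in WT, 3.21, 3.58, and 2.56 CPM in Mcl1Δhep, 2.04, 1.73, and 1.45 CPM in Mcl1Δhep Sting1-/-, and 1.13, 0.743, and 0.700 CPM in Sting1-/- livers. The Mcl1Δhep libraries again lay above all others, and WT replicate 1 was nearest to them. Its log2 fold change was 1.08 (SE 0.33), with an edgeR adjusted p of 0.0371.

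The Mcl1Δhep and WT libraries did not overlap for 8 of the 9 ligands, and they did not overlap for 33.3% of all genes tested. At an unadjusted p under 0.05, 7 of the 9 ligands passed, as did 36.9% of all genes. DESeq2 called 5 of the 9, the same 4 and Cxcl10, where it called 25.9% of the genes it tested. Each of these counts includes Cxcl2, which passed the filter on low counts through the Mcl1Δhep libraries alone and so supports none of them. The 4 calls rest on the setting. With the small RNA share as a covariate 0 of 9 were called (edgeR adjusted p of 0.0927 for Cxcl2 to 0.339 for Cxcl13), the log2 fold change of Cxcl16 being 0.59, of Cx3cl1 1.20, of Cxcl13 -1.60, and of Cxcl2 2.17, and with only the 2 groups in the fit 1, Cxcl16, was called, Cxcl2 then being removed by the filter on low counts. Over the whole table, 417 genes were called with the small RNA covariate and 1178 with only the 2 groups, against 3050 in the main fit. Leaving out 1 of the 12 libraries gave 2 to 4 calls, with Cxcl16 called each time, and 1233 to 5232 calls over all genes. Cxcl10 was gained without WT replicate 3, and Cxcl2 was removed by the filter on low counts, and so not tested, without Mcl1Δhep replicate 1. Cxcl13 was lost without WT replicate 2 or 3, Mcl1Δhep replicate 1 or 2, Mcl1Δhep Sting1-/- replicate 2, or Sting1-/- replicate 3, and Cx3cl1 without WT replicate 2 or 3, Mcl1Δhep replicate 2, Mcl1Δhep Sting1-/- replicate 2, or Sting1-/- replicate 2.

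Y-linked reads and the small RNA share moved with this comparison. Their parts in the values cannot be told apart from that of the genotype here and were not tested. Mcl1Δhep replicate 1, whose small RNA share of 0.315% lay within the WT range, had 15.97 CPM of Cxcl16, 3.21 CPM of Cx3cl1, 22 counts of Cxcl2, and 0.269 CPM of Cxcl13, each outside the range of the WT libraries in the direction of the group. Within Mcl1Δhep, Cxcl16 was lowest in this replicate. It was highest, at 29.1 CPM, in replicate 2, whose small RNA share of 2.78% was the largest. WT replicate 1, the only WT library without Y-linked reads, had 10.5 CPM of Cxcl16, 2.24 CPM of Cx3cl1, 1 count of Cxcl2, and 1.13 CPM of Cxcl13, and also lay outside the Mcl1Δhep range. With Y-linked expression as a covariate, 2 of the 9, Cxcl2 and Cxcl16, were called, as were 1531 of all genes tested. In that fit Cx3cl1 had a log2 fold change of 0.88 with an edgeR adjusted p of 0.137 and Cxcl13 one of -2.09 with 0.0659. Among the 9 libraries with at most 6 Y-linked reads, 0 of the 9 ligands were called, but WT then had 1 library.

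The comparison of Mcl1Δhep Sting1-/- with Mcl1Δhep livers asked what the loss of Sting1 changed in the diseased liver, and it shares the Mcl1Δhep libraries with the comparison above. None of the 9 ligands passed the edgeR test, which called 0% of the 15070 genes. The values of 7 of the 9 ligands were lower in the libraries labelled Mcl1 Sting1 DKO, with a median log2 fold change of -0.82 against -0.0021 over all genes. Cxcl16 stood at 0.567 and Cx3cl1 at 0.565 of their Mcl1Δhep levels. The pooled Cxcl2 reads gave a ratio of 0.332 (exact 95% interval 0.187 to 0.564, counting error only). Cxcl2 passed the filter on low counts only through the Mcl1Δhep libraries, where it is high. Its lower value therefore supports neither the median nor the counts of ligands in this comparison.

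For 4 of the 9 ligands, Cxcl2, Cxcl10, Cxcl16, and Cx3cl1, all Mcl1Δhep Sting1-/- libraries lay below all Mcl1Δhep libraries, and the groups did not overlap in either direction for 18.2% of all genes. At an unadjusted p under 0.05, 5 of the 9 passed, where 20.6% of all genes did. These were Cxcl16 (log2 fold change -0.82, SE 0.23), Cx3cl1 (-0.82, SE 0.33), Cxcl2 (-1.36 with the prior count), Cxcl14 (-1.42, SE 0.65), and Cxcl12, the only one with a higher value (0.53, SE 0.23). Their edgeR adjusted p ranged from 0.135 for Cxcl16 to 0.236 for Cxcl14. Cxcl1 (-0.93, SE 0.60), Cxcl10 (-0.71, SE 0.47), Cxcl9 (-0.08, SE 0.39), and Cxcl13 (0.77, SE 0.59) had edgeR adjusted p-values of 0.388 to 0.926. DESeq2 called 1 of the 9, Cxcl16 (adjusted p of 0.0273), where it called 4.74% of the genes it tested, and gave no adjusted p for Cxcl2. Without Mcl1Δhep replicate 1, the Mcl1Δhep library with the lowest Cxcl16 level, edgeR called Cxcl16 as well (log2 fold change -1.003, adjusted p of 0.00925), together with 3108 of all genes. This library also had the lowest small RNA share of its group, 0.315% against 2.78% and 1.55%. Why its removal added calls was not tested.

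**Figure D4:**
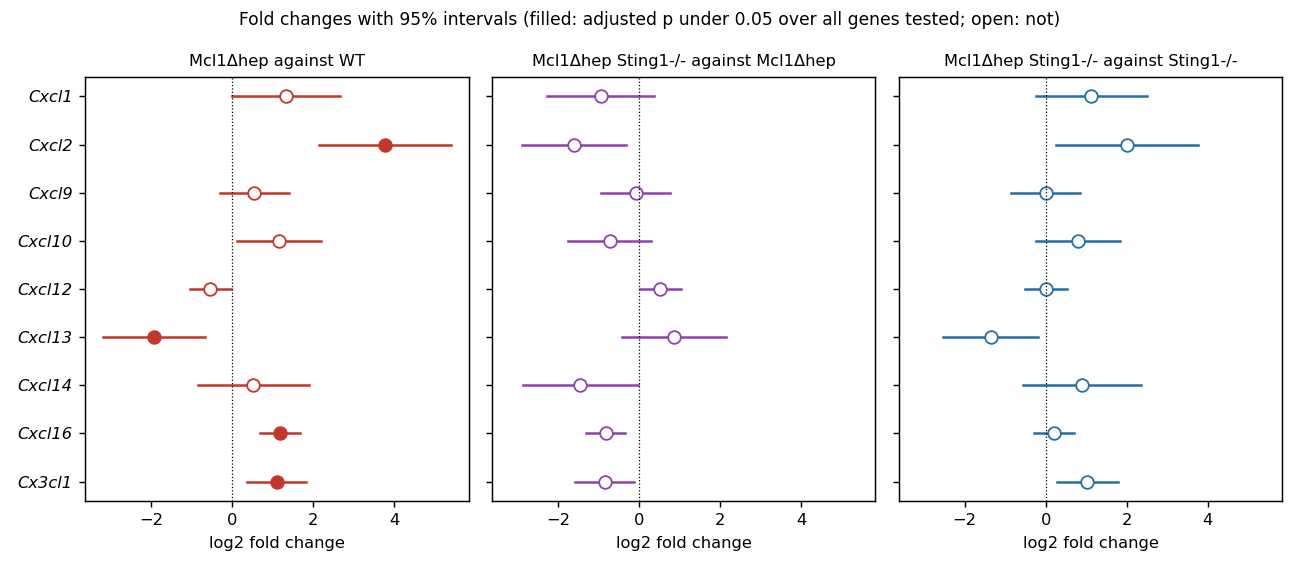
Fitted log2 fold change without the prior count (horizontal axis) of each ligand in 3 comparisons, with 95% intervals from the edgeR fit. Filled points passed the adjusted threshold of 0.05, and these are the 4 of Mcl1Δhep against WT, while all points of the other panels are open.

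The deletion of Mcl1 was also examined on the Sting1-/- background, as Mcl1Δhep Sting1-/- against Sting1-/- livers. Here 0 of the 9 ligands passed the edgeR test, which called 0.803% of all genes. The nearest to the threshold was Cx3cl1, 1.97-fold higher (log2 fold change 0.98, SE 0.35, edgeR adjusted p of 0.255). Cxcl13 stood at 0.408 of its Sting1-/- level (log2 fold change -1.29, SE 0.54, edgeR adjusted p of 0.348), and the pooled reads of Cxcl2 gave a ratio of 4.01 (exact 95% interval 1.45 to 13.7, counting error only). These 3 ligands passed at an unadjusted p under 0.05, as did 11.3% of all genes. Libraries did not overlap for 5 of the 9 ligands, with Cxcl2, Cxcl14, Cxcl16, and Cx3cl1 higher and Cxcl13 lower, and for 22.3% of all genes. DESeq2 called 0 of the 9 and 3.16% of the genes it tested. The values of Cxcl1 (log2 fold change 1.09, SE 0.63), Cxcl14 (0.86, SE 0.67), Cxcl10 (0.79, SE 0.48), Cxcl16 (0.20, SE 0.23), Cxcl12 (0.0057, SE 0.23), and Cxcl9 (-3.66e-05, SE 0.39) had edgeR adjusted p-values of 0.561 or more. The median over the 9 ligands was 0.79, against -0.0087 over all genes.

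The difference between these Mcl1 effects was tested as an interaction, and 0 of the 9 ligands passed, with 0% of all genes called by edgeR and 1.14% by DESeq2, which also called 0 of the 9. Cxcl16 was the ligand with the smallest p. Its Mcl1 effect was 1.17 in livers with Sting1 and 0.20 in livers labelled Sting1-/-, a difference of -0.97 on the log2 scale with a 95% interval of -1.67 to -0.28 (unadjusted p of 0.0101 in the edgeR fit across all genes, edgeR adjusted p of 0.281). It was the only 1 of the 9 with an unadjusted p under 0.05, which 14.4% of all genes reached. Without Mcl1Δhep replicate 1, the library with the lowest small RNA share of its group, the difference was -1.15 (edgeR adjusted p of 0.0316). That fit called 1574 genes, and the cause of the added calls was not tested. For Cx3cl1 the effects on both backgrounds were close, 1.08 and 0.98, and the interval of their difference reached from -1.13 to 0.95. For Cxcl13 the interval reached from -1.15 to 2.28 and for Cxcl2 from -4.41 to 0.87, so these intervals include large differences.

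**Figure D5:**
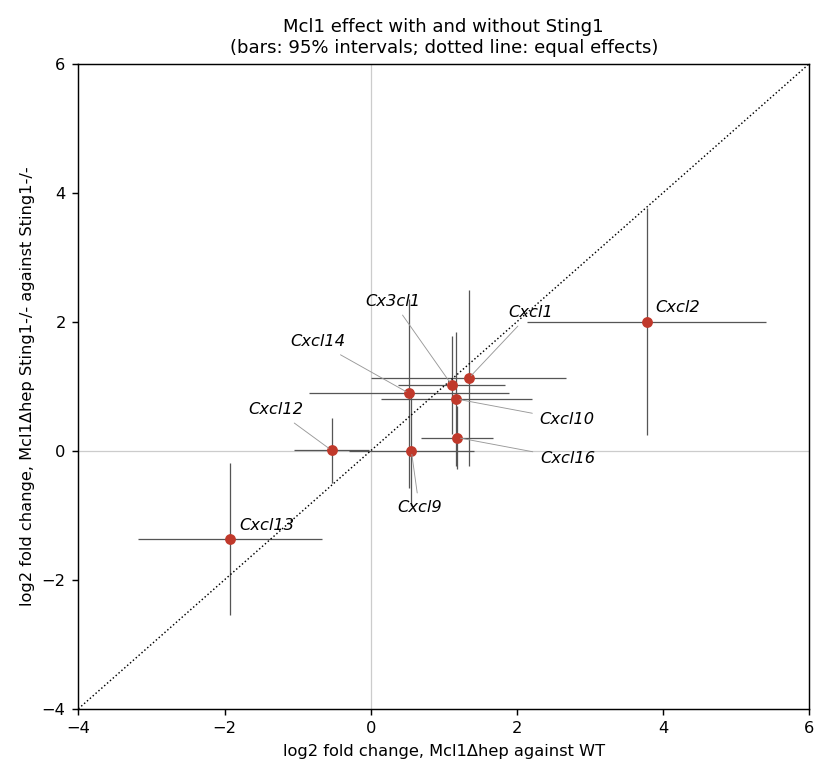
Log2 fold change without the prior count of Mcl1Δhep against WT (horizontal axis) and of Mcl1Δhep Sting1-/- against Sting1-/- (vertical axis) for the 9 ligands, with 95% intervals as bars and equality as a dotted line. Cx3cl1 and Cxcl1 lie near the line, and Cxcl16 lies below it with a vertical value of 0.21 against 1.18 on the horizontal axis.

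Averaged over both Sting1 backgrounds, the Mcl1 effect was called by edgeR for the same 4 of the 9 ligands, where 16.7% of all genes were called. Among these 4 is Cxcl2, which passed the filter on low counts through the Mcl1Δhep libraries alone. Cx3cl1 rose by 1.03 on the log2 scale (SE 0.24, edgeR adjusted p of 0.0121), Cxcl16 by 0.69 (SE 0.16, edgeR adjusted p of 0.0134), and Cxcl2 by 1.94 with the prior count (edgeR adjusted p of 0.00541), while Cxcl13 fell by 1.53 (SE 0.40, edgeR adjusted p of 0.0159). At an unadjusted p under 0.05, 6 of the 9, Cxcl2 among them, passed, where 32.4% of all genes did. With the small RNA covariate 3 were called and Cxcl13 was lost (log2 fold change -1.47, edgeR adjusted p of 0.0755), and among the 9 libraries with at most 6 Y-linked reads 0 of the 9 were called. Leaving out 1 library gave 3 to 6 calls, and Cxcl2 was again not tested without Mcl1Δhep replicate 1. Over all genes, the small RNA covariate gave 1590 calls and leaving out 1 library 1711 to 4267, against 2522 in the main fit. DESeq2 called 6 of the 9, the 4 and Cxcl1 and Cxcl10, where it called 21.4% of the genes it tested. The edgeR adjusted p of Cxcl10 was 0.0649 (log2 fold change 0.98, SE 0.34) and that of Cxcl1 0.0747 (log2 fold change 1.21, SE 0.44).

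Loss of Sting1 alone was measured as Sting1-/- against WT livers, and 0 of the 9 ligands passed, as did 0% of all genes with edgeR. At an unadjusted p under 0.05, 1 of the 9 passed, Cxcl14, and 5.45% of all genes did. DESeq2 called 0 of the 9 and 0.326% of the genes it tested. The 3 Sting1-/- libraries of Cxcl14 lay below the 3 WT libraries, the only ligand whose groups did not overlap, while 12.5% of all genes did not. Its log2 fold change was -1.76 (SE 0.67) with an edgeR adjusted p of 0.813, and WT replicate 2, at 7.504 CPM, was far above the other WT libraries. The estimates of the other 8 lay between -0.72 for Cx3cl1 (SE 0.35) and 0.48 for Cxcl9 (SE 0.39), with edgeR adjusted p-values of at least 0.910. The median over the 9 ligands was -0.01.

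Mcl1Δhep Sting1-/- livers were also set against WT, and again 0 of the 9 ligands passed the edgeR test, which called 1.82% of all genes. Cxcl16 was 1.28-fold (log2 fold change 0.35, 95% interval -0.14 to 0.85) and Cx3cl1 1.19-fold (0.26, interval -0.47 to 0.999) of WT. The pooled reads of Cxcl2 gave a ratio of 4.50 to WT (exact 95% interval 1.496 to 18.2, counting error only), and Cxcl2 was the only 1 of the 9 with an unadjusted p under 0.05, which 14.4% of all genes had. Cxcl2 and Cxcl13 were the 2 of the 9 whose libraries did not overlap, Cxcl2 higher and Cxcl13 lower, and 22.8% of all genes did not overlap. Cxcl13 stood at 0.499 of WT (log2 fold change -1.002, SE 0.54, edgeR adjusted p of 0.415). DESeq2 called 0 of the 8 ligands to which it gave an adjusted p, Cxcl2 having none, and 4.72% of the genes it tested. The remaining estimates were 0.48 for Cxcl9 (SE 0.39), 0.45 for Cxcl10 (SE 0.47), 0.39 for Cxcl1 (SE 0.61), -0.0051 for Cxcl12 (SE 0.23), and -0.90 for Cxcl14 (SE 0.65).

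The receptors of these ligands were measured beside them. Of 9 receptor genes, 8 were tested, and 2 rose in Mcl1Δhep against WT livers, where 10.8% of all genes were called higher. Cxcr4, the receptor of CXCL12, stood at 0.633, 0.682, and 1.16 CPM in WT and at 3.21, 9.30, and 3.73 CPM in Mcl1Δhep livers (log2 fold change 2.64, SE 0.56, edgeR adjusted p of 0.00805). In the same libraries Cxcl12 had its lowest group mean. Cxcr2, the receptor of CXCL1 and CXCL2, stood at 0.185, 0.297, and 0.0660 CPM in WT and at 0.683, 0.857, and 0.316 CPM in Mcl1Δhep livers (log2 fold change 1.497, SE 0.54, edgeR adjusted p of 0.0394). The receptors of the called transmembrane ligands did not pass, with a log2 fold change of 0.59 (SE 0.37) for Cxcr6 and 0.99 (SE 0.39, edgeR adjusted p of 0.0850) for Cx3cr1, and neither did Cxcr5, the receptor of CXCL13 (-0.08, SE 0.66). Of 7 further ligands of the family, 3 were tested and 1 rose, Pf4, the platelet factor, by 1.22 on the log2 scale (SE 0.38, edgeR adjusted p of 0.0348). Of the 3 protease genes Adam10, Adam17, and Dpp4, which shed or trim these ligands, 0 of 3 passed. In Mcl1Δhep Sting1-/- against Mcl1Δhep livers, where edgeR called 0% of all genes, 0 of the tested genes of the 3 lists passed.

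Genes of the signals that induce these ligands were counted by list. Of 13 genes of the NF-kB and IL-1/TNF list, 11 were tested and 4 rose in Mcl1Δhep against WT livers, namely Icam1 (log2 fold change 0.93), Tnfaip3 (1.29), Nfkb2 (1.06), and Relb (1.09), with edgeR adjusted p-values of 0.00197 to 0.0224 and a list median of 0.93. Of 11 genes of the interferon list, 10 were tested and 1 rose, Irf8 (log2 fold change 1.15, edgeR adjusted p of 0.00116), a factor of the monocyte lineage, and the list median was -0.25. Of 5 lymphotoxin genes, 4 were tested and 0 passed, with a median of 0.39. Against 10.8% of all genes called higher, the 4 of 11 and 1 of 10 are counts without a test of the lists. In Mcl1Δhep Sting1-/- against Mcl1Δhep livers 0 genes of the 3 lists passed, where edgeR called 0% of all genes.

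Markers of several leukocyte types and of myofibroblasts rose in Mcl1Δhep against WT livers, while others did not. Over all genes tested, 10.8% were called higher and 9.43% lower, and the marker lists were not tested as sets. In whole liver more cells of a type and more RNA per cell cannot be told apart. All 7 markers of recruited macrophages and monocytes rose in Mcl1Δhep against WT livers, and their sum stood between 16.7 and 31.3 CPM in WT, between 92.7 and 190 CPM in Mcl1Δhep, between 44.5 and 65.5 CPM in Mcl1Δhep Sting1-/-, and between 20.7 and 25.4 CPM in Sting1-/- livers. Neutrophil markers rose for 4 of the 4 tested of 5, with sums of 2.85 to 4.59 CPM in WT and 9.55 to 21.9 CPM in Mcl1Δhep livers, and 1 of the 5 was at 0 in all WT libraries. Myofibroblast markers rose for 5 of 6, with sums of 109 to 244 CPM in WT and 449 to 531 CPM in Mcl1Δhep livers. T and NK cell markers rose for 3 of 5 tested, and dendritic cell markers for 1 of 4. Sinusoidal and vascular endothelial markers rose for 0 of 6 and 0 of 3, cholangiocyte markers for 0 of 5 tested. B cell markers, whose cells follow CXCL13, rose or fell for 0 of 4, with sums of 2.43 to 7.36 CPM in WT and 3.58 to 7.15 CPM in Mcl1Δhep livers. Kupffer cell markers rose for 2 of 5, stellate cell markers rose for 1 and fell for 1 of 6, mesothelial and platelet markers passed for 0 of 3 and 0 of 2 tested, and 1 of 6 hepatocyte markers, Cyp2e1, fell. In Mcl1Δhep Sting1-/- against Mcl1Δhep livers 0 markers passed, as did 0% of all genes. The median log2 fold change was -1.16 for recruited macrophages, -1.01 for neutrophils, and -0.85 for myofibroblasts. These lists had risen in the same Mcl1Δhep libraries against WT. The medians of the other lists lay between -0.46 for mesothelium and 0.07 for hepatocytes. The exception was -5.91 for the 1 tested marker of skeletal muscle, whose transcripts Mcl1Δhep replicate 3 held. The part of the marked cell types in the ligand values was not tested.

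Across the 12 libraries, the genes whose log2 CPM was most like each ligand were found by Pearson correlation, a description over libraries that share genotypes and depth. Cxcl16 was most like Cyba (r = 0.98), a subunit of the phagocyte NADPH oxidase, followed by Plac8 and Cd52 (both r = 0.97), and Cx3cl1 was most like Lama2 (r = 0.99), Mrc2 (0.98), and Bgn (0.97), genes of the extracellular matrix and its turnover. Cxcl10 was most like Ifi204 (0.95), an interferon-inducible gene, Scimp (0.94), and Ccl2 (0.92), and Cxcl2 was most like Smox (0.96), Tnfrsf12a (0.96), and Wfdc3 (0.96). Cxcl13 was most like Slc46a1 (0.97), Cxcl12 like Sult2a7 (0.93), Cxcl1 like Prpf31 (0.92), Cxcl9 like G0s2 (0.91), and Cxcl14 like Ywhaq (0.89) and Lcn2 (0.89). After centring on genotype means, Lama2 remained the most like Cx3cl1 (r = 0.97), and for the other 8 ligands another gene came first, for example Tgtp1 for Cxcl10 (0.95) and Ap1m1 for Cxcl16 (0.96).

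Among the 9 ligands themselves, the pairs most alike over the 12 libraries were Cxcl2 with Cxcl16 and with Cx3cl1 (both r = 0.83) and Cxcl10 with Cxcl16 (0.77), and the most opposed were Cxcl2 with Cxcl13 (-0.90) and Cxcl13 with Cx3cl1 (-0.85). Within genotypes, after centring on their means, these values were 0.36, 0.34, 0.51, -0.68, and -0.59. The neighbors Cxcl9 and Cxcl10 had r = 0.64 over libraries and 0.66 within genotypes. The neighbors Cxcl1 and Cxcl2 had 0.64 and 0.18, and Cxcl12 with Cxcl13 had 0.76 and 0.71. Cxcl1 and Cxcl9 ran against each other within genotypes (-0.82), as in replicate 3 of both Sting1-/- genotypes, in which Cxcl9 was highest and Cxcl1 lowest of the group.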

How the data were processed

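Total RNA of mouse liver was sequenced, and the deposited files hold raw read counts per gene, 1 file per library, which the authors made with STAR and featureCounts against GRCm39, per the labels. Tool versions, the annotation, and the use of strand are not given in the sources used here. The labels name a Qiagen RNeasy Plus Mini Kit and the methods an RNeasy Micro kit. Libraries were grouped by the genotype in the labels, with 3 per genotype and 28826367 to 45266387 counts each, and no per-sample column was left without a sample.

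The counts of all 12 libraries were fitted in 1 edgeR (4.0.16, R 4.3.3) quasi-likelihood model with TMM factors after filterByExpr by genotype, which kept 15070 of 40551 genes. Log2 fold changes carry a prior count of 2 unless stated, intervals are 95% intervals of the estimate without it, and p-values are two-sided and Benjamini-Hochberg adjusted over all tested genes, with a threshold of 0.05. DESeq2 (1.42.0), its size factors, no filter, a replicate block, Y-linked and small RNA covariates, the compared groups alone, and each library left out were tried, and the fits were tested on simulated counts. The restriction to 9 libraries and the canonical transcript length were added after seeing the data. TPM used the summed exon lengths of GENCODE vM39. Promoters came from a RefSeq table of GRCm38.p6, so their coordinates differ in build from those of the genes. The genes named are the 9 ligands, Mcl1 and Sting1, called genes of the listed receptors, ligands, and inducers, and the 3 genes most correlated with each ligand. Uncalled receptors, the proteases, genes with overlapping exons, and Cyp2e1 fall outside this rule and were picked with their values in view. The members and lists were chosen with earlier results of these data known. No 2 libraries of the same genotype agreed within sampling noise, and pairs across genotypes were not checked for this. Intervals of pooled reads cover counting error only.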

Additional observations from a re-analysis of the deposited data

How the results depend on the processing

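Apart from the fits that each left out 1 library, 429 of the estimates of single ligands kept their direction and their side of the threshold. In the same settings, 17 were no longer called, 6 became called, and 29 changed sign, none of the latter having been called. These settings include the compared groups alone and the 9 libraries with at most 6 Y-linked reads, which used fewer libraries. In Mcl1Δhep against WT, 4 ligands were called, and this count became 2 with the Y-linked covariate, 0 with the small RNA covariate, 1 with only the 2 groups compared, and 0 among the 9 libraries with at most 6 Y-linked reads, a setting added after seeing the data that leaves WT with 1 library, whose spread is then assumed to be that of the other groups. In Mcl1Δhep Sting1-/- against Mcl1Δhep livers the count was 0 and became 1 with DESeq2. For the mean Mcl1 effect it was 4 and became 3 with the small RNA covariate, 6 with DESeq2, and 0 among the 9 libraries. The cause of these changes was not tested. Genes called over the whole table numbered 3050 for Mcl1Δhep against WT and became 3884 with DESeq2, 1531 with the Y-linked covariate, 417 with the small RNA covariate, 1178 with only the 2 groups, and 3 among the 9 libraries. For Mcl1Δhep Sting1-/- they numbered 0 against Mcl1Δhep (671 with DESeq2, 2 with the Y-linked covariate), 121 against Sting1-/- (474 with DESeq2, 51 with the Y-linked covariate, 17 with only the 2 groups, 0 among the 9 libraries), and 275 against WT (682 with DESeq2, 13 with only the 2 groups, 0 among the 9 libraries). For Sting1-/- against WT they numbered 0 (49 with DESeq2, 2 with only the 2 groups), for the interaction 0 (172 with DESeq2), and for the mean effect 2522 (1590 with the small RNA covariate, 506 among the 9 libraries).

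Log2 fold changes changed sign as follows. With the small RNA covariate, Cxcl14 was -1.17 in Mcl1Δhep against WT and -0.0095 in the mean effect, Cxcl9 was 0.033 in Mcl1Δhep Sting1-/- against Mcl1Δhep, Cxcl9 was 0.061 and Cxcl12 -0.026 against Sting1-/-, and Cxcl12 was 0.077 against WT. In the same setting, Cxcl2 was -0.27, Cxcl12 0.10, and Cxcl16 -0.24 in Sting1-/- against WT, and the interaction of Cxcl1 was 0.30. With the Y-linked covariate, Cxcl9 was 0.066 in Mcl1Δhep Sting1-/- against Mcl1Δhep and 0.15 against Sting1-/-, Cxcl13 was -0.039 in Sting1-/- against WT, and the interactions of Cxcl14 and Cx3cl1 were -0.53 and 0.24. Among the 9 libraries, Cxcl9 was 0.073 and 0.15 in the same comparisons, Cxcl14 was 0.028 and Cx3cl1 -0.48 in Mcl1Δhep Sting1-/- against WT, and the interactions of Cxcl14 and Cx3cl1 were -0.76 and 0.39. In Mcl1Δhep Sting1-/- against Sting1-/- livers, where Cxcl9 was near 0, it was 0.0096 with DESeq2 size factors, 0.0034 without the filter, 0.0101 with DESeq2, and 0.0040 with only the 2 groups. Cxcl12 in Mcl1Δhep Sting1-/- against WT was 0.0018 with DESeq2 and with its size factors.

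Libraries with the same replicate number had r between -0.54 and 0.25 (median -0.019, 3 of 18 pairs over 0.1). Those with other numbers had r between -0.24 and 0.44 (median 0.0056, 7 of 36 pairs over 0.1). This gave no sign that the numbers pair the samples, but a check on 3 libraries per genotype cannot exclude pairing. A replicate block left the calls of Mcl1Δhep against WT at the same 4 ligands, called 2591 genes there against 3050, added Cxcl1 and Cxcl10 to the mean effect for a total of 6 ligands, and put Cxcl9 at 0.0102 and Cxcl12 at -0.021 in Mcl1Δhep Sting1-/- against Sting1-/- livers.

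With 1 library left out, 694 of the estimates kept direction and call, 11 lost the call, 7 gained it, and 37 changed sign. The calls ranged from 2 to 4 ligands for Mcl1Δhep against WT, from 0 to 1 for Mcl1Δhep Sting1-/- against Mcl1Δhep and for the interaction, and from 3 to 6 for the mean effect, and were 0 throughout for the other 3 comparisons. The ranges of the log2 fold changes that crossed 0 were -0.13 to 1.44 for Cxcl14 in Mcl1Δhep against WT, -0.52 to 0.14 for Cxcl9 in Mcl1Δhep Sting1-/- against Mcl1Δhep, and -0.42 to 0.50 for Cxcl9 and -0.32 to 0.20 for Cxcl12 against Sting1-/-. In Sting1-/- against WT they were -0.25 to 0.36 for Cxcl2, -0.026 to 0.69 for Cxcl9, -0.77 to 0.35 for Cxcl10, -0.14 to 0.10 for Cxcl12, and -0.049 to 0.32 for Cxcl16. In Mcl1Δhep Sting1-/- against WT they were -0.34 to 0.19 for Cxcl12 and -1.23 to 0.026 for Cxcl14. For the interaction they were -0.68 to 0.40 for Cxcl1, -1.06 to 0.063 for Cxcl10, -0.58 to 0.99 for Cxcl14, and -0.56 to 0.13 for Cx3cl1. Depth limits Cxcl2, which had 0 to 30 reads per library. The filter removed it without Mcl1Δhep replicate 1 and with only the 2 groups compared, so these settings gave no value for it.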

Other observations

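Averaged over both Sting1 backgrounds, edgeR called 16.7% of all genes for the Mcl1 effect, with 9.9% called higher. The receptor and inducer lists gave counts that differ in their members from those of Mcl1Δhep against WT. Of 8 receptor genes tested, 2 rose, Cxcr4 by 1.74 on the log2 scale (SE 0.39, edgeR adjusted p of 0.00929) and Cx3cr1, the receptor of CX3CL1, by 1.24 (SE 0.28, edgeR adjusted p of 0.0109), while Cxcr2 had a value of 0.95 (SE 0.39, edgeR adjusted p of 0.0694). Cx3cr1 stood at 2.74, 2.17, and 0.958 CPM in WT, 3.83, 4.93, and 3.10 CPM in Mcl1Δhep, 3.94, 2.29, and 1.59 CPM in Mcl1Δhep Sting1-/-, and 0.873, 0.982, and 0.820 CPM in Sting1-/- livers. The libraries with the Mcl1 deletion lay above those without it on each background, and the 3 Sting1-/- libraries lay below WT replicates 1 and 2 and around WT replicate 3. Of 11 tested genes of the NF-kB and IL-1/TNF list, 5 rose, the 4 named for Mcl1Δhep against WT and Tnf, the cytokine, by 1.26 (SE 0.36, edgeR adjusted p of 0.0175). Of 10 tested interferon genes, 1 rose, Irf8 (0.84, SE 0.098, edgeR adjusted p of 4.11e-04). The lists were not tested as sets.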
